A study of Homo sapiens with 15 samples.

Results

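The genes described here build, inspect and divide the mitotic spindle. They were fixed as a list of 49 gene symbols: regulators of entry into mitosis, kinetochore proteins, spindle checkpoint and anaphase factors, the chromosomal passenger complex, spindle proteins, kinesins and cytokinesis factors. All 49 were represented on the array, among 17687 genes in all, with the probe set of highest mean taken where a gene had several. No filter on low values was applied, so all 49 entered every test.

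In a dividing cell the transcripts of these genes are low in early interphase and accumulate towards mitosis. Cyclins with CDK1 then start chromosome condensation, the kinetochores attach chromosomes to microtubules, the checkpoint holds back the anaphase-promoting complex until attachment is complete, and kinesins and the cleavage machinery separate the daughter cells. In bulk RNA their level is commonly read as a measure of proliferation. Preadipocytes leave the cell cycle as they become fat cells, and lipid-filled adipocytes rarely divide.

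The cells were ASC52htert, a human line of adipose mesenchymal stem cells immortalised with telomerase (hTERT), so all groups carry that transgene and descend from 1 line. Undifferentiated cells (MSC) had been seeded in MesenPRO RS, and their medium and time at harvest were not given, so differentiation, medium and time in culture cannot be told apart in the first step. Mature adipocytes (MA) were switched 3 days after seeding to StemPRO Adipogenesis Differentiation medium for 14 days and then kept for 7 days in RPMI with 10% FBS. Dedifferentiated adipocytes (DED, the submitters' name) had the same differentiation and then 7 days in RPMI with 10% FBS that MDA-MB-231 cells, from a human breast cancer, had conditioned. Each group had 5 arrays, and values are log2 intensities normalized by RMA. Nothing in the labels says that the arrays of a group came from separate cultures, so each p-value reflects the scatter of these samples alone, part or all of which may be technical.

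The mean of 7 adipocyte markers, among them ADIPOQ and PLIN1, was 5.30 to 5.58 in MSC arrays, 12.02 to 12.13 in MA and 9.59 to 10.96 in DED, where array 1 was highest. The mean of 8 mesenchymal stem cell markers was 11.71 to 12.04 in MSC, 10.91 to 11.22 in MA and 10.79 to 11.18 in DED. Single markers of this list went both ways. From MSC to MA the log2 differences ran from -4.02 (PI16) to 1.13 (PDGFRA). From MA to DED THY1 (0.76) and ENG (0.74) rose, NT5E (-0.70) and CD34 (-1.37) fell, and 4 did not pass the test. Of 8 measured epithelial and breast carcinoma markers 0 passed the test between DED and MA (list means of 5.92 to 6.09 and 5.83 to 5.93), and their levels differed. The group means of EPCAM, KRT18 and CDH1 were 4.21 to 4.76, those of CLDN4 and ELF3 4.93 to 5.87, and those of KRT19 and KRT7 6.66 to 7.44. KRT8 was above the negative controls' upper level given below, at 8.94 in MSC, 8.99 in MA and 9.16 in DED. Of 4 leukocyte markers CD14 was higher in DED than in MA by 1.40 (SE 0.23) and CD68 differed by -1.18 (SE 0.16), and 3 endothelial markers did not pass. The leukocyte list mean was 6.24 to 6.46 for MSC, 6.39 to 6.54 for MA and 6.43 to 6.81 for DED, and the endothelial one 5.26 to 5.59, 5.24 to 5.50 and 5.18 to 5.56. The part of these markers in the results below was not tested. The lowest correlation between arrays of a group over all genes was 0.992 for MSC, 0.992 for MA and 0.982 for DED. Among 612 probe sets that serve as negative controls, the median value was 4.80, and 95% lay under 8.31. A difference is given as a fold only where both group means were above 8.31.

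Mitotic transcripts were highest in MSC, lower in MA and lowest in DED. From MSC to MA 47 of 49 genes fell and 0 rose, with a median log2 difference of -1.97, against a median of -0.002 over all genes. From MA to DED 47 of 49 fell again and 0 rose, with a median of -1.78, against 0.018 over all genes. Genes called here passed limma's moderated test at a Benjamini-Hochberg adjusted p under 0.05 over all 17687 genes. By that rule 17.6% of all genes were lower in MA than in MSC, 13.0% lower in DED than in MA and 16.4% lower in DED than in MSC, while 15.4%, 12.9% and 17.1% were higher. Between DED and MSC all 49 were lower, with a median of -3.91. Both steps share the MA arrays, and 46 of the 49 were called lower at both, against 3.05% of all genes. Because the RNA is from whole cultures, fewer cells nearing mitosis and less of each transcript per cell cannot be told apart.

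With a log2 difference of -1 or lower asked as well, 46 were lower in MA than in MSC (5.18% of all genes), 35 in DED than in MA (3.48%) and 46 in DED than in MSC (5.68%). In the last 2 counts 9 members had a DED mean under the negative control median. All MA arrays lay below all MSC arrays in 46 genes (14.6% of all genes), all DED arrays lay below all MA arrays in 42 (9.48% of all genes), and all DED arrays lay below all MSC arrays in 48 (12.7% of all genes). In 42 genes the 3 groups were stacked in the order MSC, MA, DED with no overlap at either step, against 2.17% of all genes. Adjusted p-values of the called members ran from 8.3e-13 to 0.015 for MA against MSC, from 8.3e-14 to 0.026 for DED against MA and from 2.1e-17 to 0.0017 for DED against MSC.

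**Figure D1:**
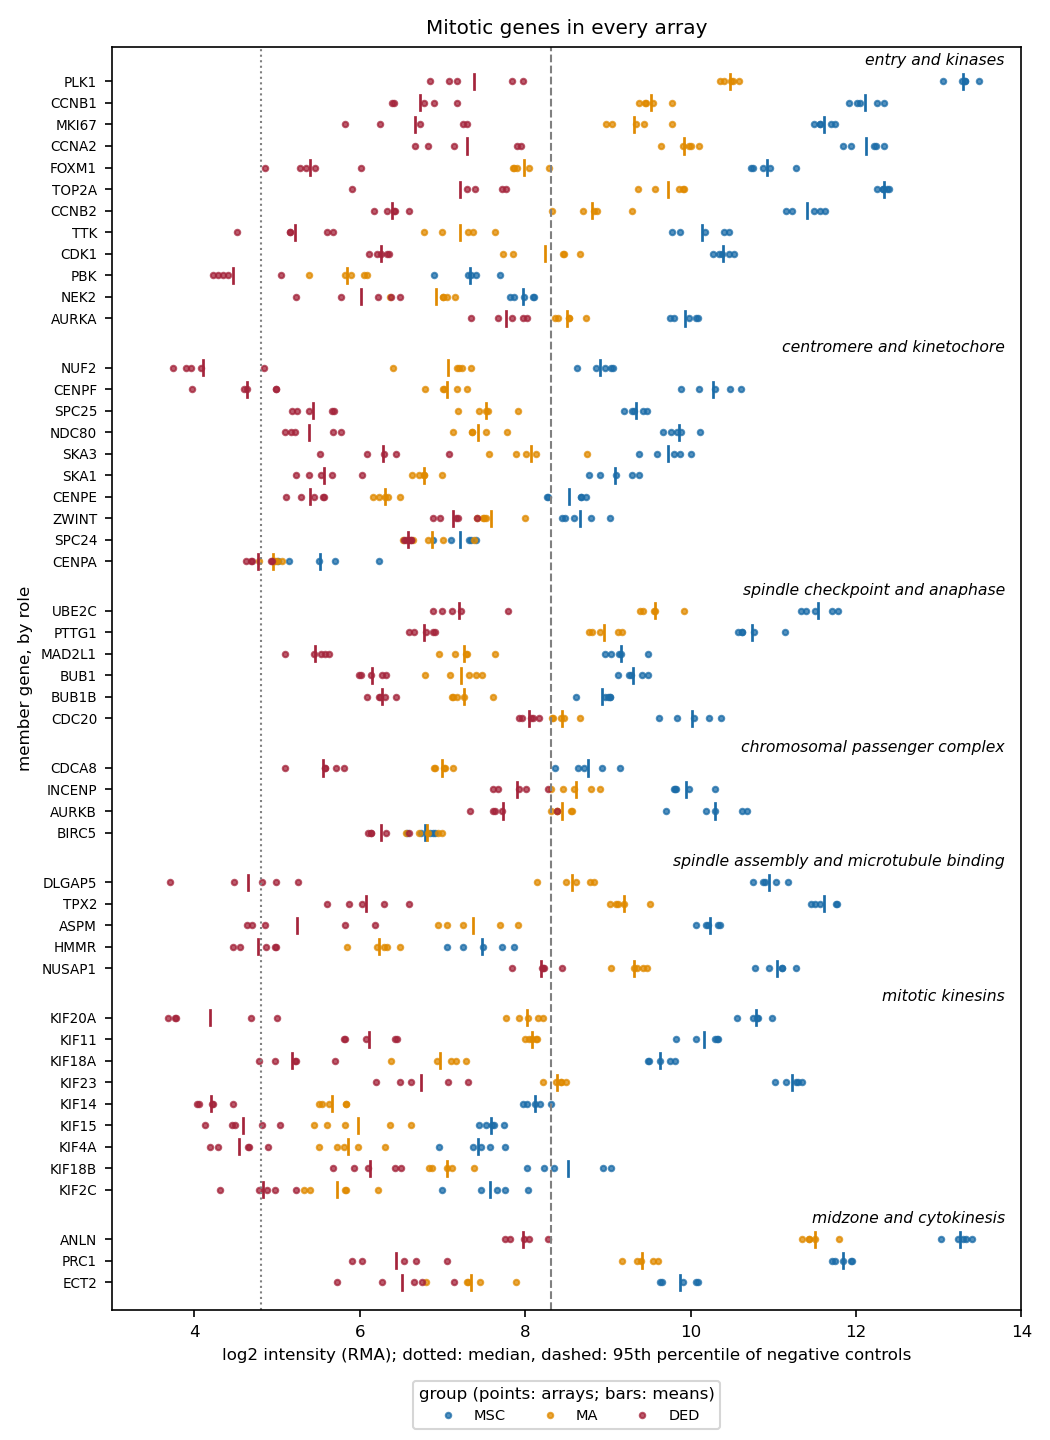
Log2 intensity (x axis) of the 49 mitotic genes (rows, grouped by role) in each of 15 arrays, with vertical bars at group means of 5 arrays; the dotted line marks the negative controls' median (4.80) and the dashed line their 95th percentile (8.31). In 42 rows the MSC, MA and DED points lie in that order from right to left with no overlap, some with a narrow gap. All 49 DED means lie left of the dashed line.

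The decline carried the genes towards the background of the array. The median over all genes, 6.95 to 6.99 in every array, was itself under 8.31. Of the 49 group means, 10 were below the level that 95% of negative controls stayed under in MSC, 31 in MA and 49 in DED, and 10 were below the controls' median in DED against 0 in MA and 0 in MSC. These 10 were KIF20A, DLGAP5, NUF2, CENPF, CENPA, KIF14, KIF15, KIF4A, HMMR and PBK. A log2 difference that ends in DED may therefore depend on background and understate the change in RNA, which was not tested. How many of all genes lay below either control level was not counted, so these counts of members have no share to be read against.

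The mean over the 49 genes was 9.93, 9.78, 9.72, 9.69 and 9.81 in MSC arrays 1 to 5, 7.77, 7.71, 7.88, 7.80 and 7.86 in MA arrays 1 to 5, and 6.23, 6.14, 5.89, 5.91 and 6.01 in DED arrays 1 to 5. The groups were far apart and narrow, with group means of 9.79 ± 0.095, 7.80 ± 0.067 and 6.04 ± 0.15 (SD, n = 5 each). Array 1 was the highest of its group for 24 of 49 genes in MSC and for 24 in DED, where it was also the array with the highest adipocyte markers. Array 3 of DED was the lowest for 13 genes and array 4 for 14. The median over all genes was between 6.95 and 6.99 in every array. Spread differed by group: the median SD over members was 0.19 among MSC arrays, 0.22 among MA arrays and 0.34 among DED arrays. In DED 29 members had their largest SD. The SDs of all genes were not set beside these, and over all genes DED also held the lowest correlation within a group (0.982). The fit pools the spread over the groups, so its SEs do not show this difference.

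**Figure D2:**
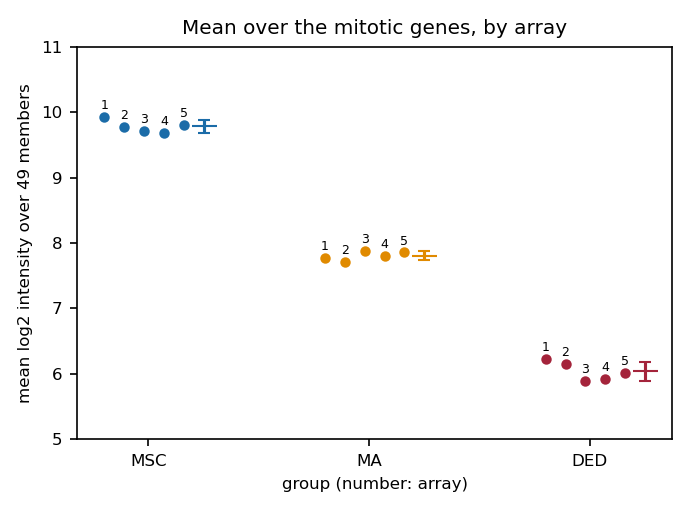
Mean log2 intensity over the 49 mitotic genes (y axis) in each array (numbered points) by group, with the group mean and SD of 5 arrays beside them. MSC arrays lie between 9.69 and 9.93, MA arrays between 7.71 and 7.88 and DED arrays between 5.89 and 6.23, with no overlap.

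Promoter letters were also shared by many of the members. The list was made of mitotic genes, so its shares are not independent of what is known of mitotic promoters. Many mitotic promoters carry a cell cycle genes homology region (CHR), which the MuvB core of the DREAM complex and of the B-MYB and FOXM1 complexes binds, downstream of CCAAT boxes bound by NF-Y. RefSeq promoters of GRCh38.p14 (250 bases before to 50 after the gene start) were held for 42 of the 49 genes and gave 47 windows, since 5 genes had several starts. FOXM1, AURKA, TPX2, TTK, BIRC5, UBE2C and PBK were not matched. The strings searched on both strands were TTTGAA (CHR core), TTCGAA (CHR variant), CCAAT, and TTGGCGC and GCGGGAA (E2F sites). The first E2F string shares TTGG with the reverse complement of CCAAT, so these matches can overlap. TTTGAA was present in 32 of the 42 genes (76.2%), against 15.9% of 14250 measured genes with a promoter and 15.2% of all 35116 promoters. CCAAT was present in 33 (78.6%), against 42.3% and 34.6%, and both together in 25 (59.5%), against 6.60% and 5.90%. TTGGCGC was present in 7 (16.7%, against 5.01% and 3.04%), GCGGGAA in 3 (7.14%, against 10.8% and 6.55%) and TTCGAA in 2 (4.76%, against 2.17% and 1.45%).

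Of 47 matches to TTTGAA 33 (70.2%) began within 50 bases of the gene start, in 28 genes, against 27.2% of 6238 matches in all promoters. Of 80 matches to CCAAT 62 (77.5%) began between 120 and 20 bases before the start, in 30 genes, against 48.1% of 17602, and 23 genes held 2 or more in 1 window. For 31 matches to TTTGAA with a CCAAT box upstream in the same window, the nearest box began a median of 35 bases before it, and for 16 of them between 25 and 50 bases. This spacing was not measured over all promoters, so it has no share to be read against. Windows of genes with several starts overlap and can count 1 match more than once.

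**Figure D3:**
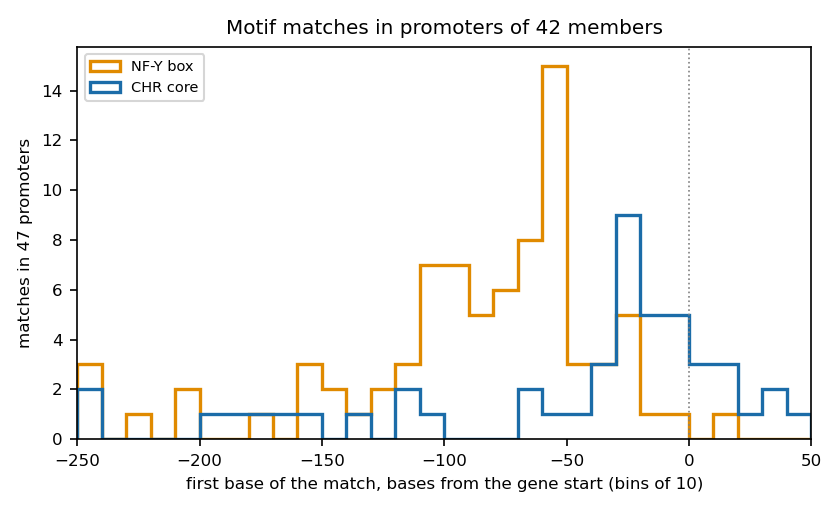
Matches to the CHR core and to the NF-Y box (y axis, matches per bin of 10 bases) by distance from the gene start (x axis, bases) in 47 promoter windows of 42 members. The NF-Y box matches collect upstream of the start, 62 of 80 of them between -120 and -20, and 33 of the 47 CHR core matches begin within 50 bases of it.

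The 130 bases before the start of 8 members are printed 5′ to 3′ on the gene's strand, with matches on either strand in capitals (ATTGG and TTCAAA are the reverse complements of CCAAT and TTTGAA). CCNB2, PLK1, PRC1 and KIF11 show the arrangement in genes that fell at both steps. ANLN has a CHR core on each strand and no CCAAT, KIF20A has CCAAT boxes and no TTTGAA in the window, and CENPA and SPC24 are the members that changed least between MA and DED. A match is a description of letters, not a bound site.
CCNB2, cyclin B2, chr15:59105016-59105145, plus strand: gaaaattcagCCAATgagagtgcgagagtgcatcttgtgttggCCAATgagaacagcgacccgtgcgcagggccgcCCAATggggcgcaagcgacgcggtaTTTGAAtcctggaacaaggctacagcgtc
PLK1, polo-like kinase, chr16:23678759-23678888, plus strand: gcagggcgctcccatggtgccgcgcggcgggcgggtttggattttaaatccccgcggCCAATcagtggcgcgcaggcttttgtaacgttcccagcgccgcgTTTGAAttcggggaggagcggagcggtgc
PRC1, midzone bundler, chr15:90994536-90994665, minus strand: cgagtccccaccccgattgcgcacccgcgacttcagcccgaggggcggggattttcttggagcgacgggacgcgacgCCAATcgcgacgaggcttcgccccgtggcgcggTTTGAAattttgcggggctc
KIF11, spindle kinesin, chr10:92593000-92593129, plus strand: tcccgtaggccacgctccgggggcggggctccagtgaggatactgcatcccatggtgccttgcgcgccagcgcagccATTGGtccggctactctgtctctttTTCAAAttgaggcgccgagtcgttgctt
ANLN, anillin, chr7:36389732-36389861, plus strand: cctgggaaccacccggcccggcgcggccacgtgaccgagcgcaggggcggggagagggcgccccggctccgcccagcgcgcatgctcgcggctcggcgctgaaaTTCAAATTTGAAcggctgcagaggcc
KIF20A, midzone kinesin, chr5:138178982-138179111, plus strand: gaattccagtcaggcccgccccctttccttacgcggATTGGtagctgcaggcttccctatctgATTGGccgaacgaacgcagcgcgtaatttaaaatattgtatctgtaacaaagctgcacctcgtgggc
CENPA, centromeric histone H3, chr2:26785926-26786055, plus strand: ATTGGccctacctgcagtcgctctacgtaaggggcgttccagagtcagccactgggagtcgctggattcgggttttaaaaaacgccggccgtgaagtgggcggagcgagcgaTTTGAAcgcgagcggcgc
SPC24, Ndc80 complex subunit, chr19:11155783-11155912, minus strand: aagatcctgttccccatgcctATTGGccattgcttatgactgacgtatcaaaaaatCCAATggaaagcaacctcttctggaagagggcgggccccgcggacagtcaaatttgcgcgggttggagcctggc

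Grouped by TTTGAA and CCAAT, with no test, the median log2 difference of DED against MSC was -3.92 in the 25 genes with both. It was -3.52 in 7 with TTTGAA but no CCAAT (ANLN, BUB1B, KIF15, NDC80, NUF2, SKA1 and SKA3). In 8 with CCAAT but no TTTGAA (AURKB, BUB1, CCNA2, CCNB1, KIF20A, NEK2, PTTG1 and SPC24) it was -3.57. The other strings were not used in this grouping, and BUB1 and NDC80 also hold TTCGAA. CENPE and KIF2C, with neither string, had a median of -2.94. Genes of the first class spanned -6.30 to -0.74 and those of the third -6.60 to -0.63.

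Among 12 genes of mitotic entry, the mitotic kinases and 2 proliferation markers, all 12 fell at both steps. Pairs of values from here on are the log2 difference of MA from MSC and then that of DED from MA. Counts in this and the other role groups are read against the shares of all genes. From MSC to MA 17.6% were called lower and 14.6% were lower without overlap, and from MA to DED 13.0% and 9.48%. The median was -2.44 from MSC to MA and -2.46 from MA to DED, and all 12 were non-overlapping at the first step and 11 at the second, NEK2 being the exception. PLK1, the kinase that drives centrosome maturation and mitotic entry, read 13.28, 13.32, 13.32, 13.05 and 13.49 in MSC arrays 1 to 5, 10.36, 10.41, 10.59, 10.49 and 10.51 in MA, and 7.84, 7.97, 7.08, 6.85 and 7.18 in DED. Its groups were separate at both steps, and DED arrays 1 and 2 were higher than DED arrays 3 to 5. PLK1 fell 7.06-fold from MSC to MA, and the log2 differences were -2.82 and -3.09 (SE 0.17 each).

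AURKA, the centrosomal Aurora kinase, was the least changed of these 12 from MA to DED. It read 9.80, 9.98, 10.06, 10.09 and 9.75 in MSC arrays 1 to 5, 8.53, 8.36, 8.40, 8.73 and 8.53 in MA, and 7.97, 8.02, 7.67, 7.35 and 7.84 in DED. Its groups did not overlap, but the second step was small, at -0.74 (SE 0.13, adjusted p = 0.00019) after -1.43 (SE 0.13).

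CDK1, the mitotic cyclin-dependent kinase, fell (-2.16 and -1.98), and its partner cyclins fell together: CCNA2 at -2.19 and -2.63, CCNB1 at -2.59 and -2.79, and CCNB2 at -2.61 and -2.42. FOXM1, the transcription factor of late cell cycle genes, fell (-2.93 and -2.60). Of the other kinases, TTK, which starts checkpoint signalling, fell (-2.92 and -2.0), NEK2, which separates centrosomes, at -1.06 and -0.90, and PBK at -1.48 and -1.39. The proliferation antigen MKI67 fell (-2.30 and -2.65), and TOP2A, the topoisomerase that untangles sister chromatids, at -2.61 and -2.51. TOP2A had the largest SD of any member in DED, 0.76, with array 3 at 5.90 and the others at 7.30 to 7.77.

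Among 10 centromere and kinetochore genes 9 fell from MSC to MA and 8 from MA to DED, with medians of -1.83 and -1.50. NUF2, a subunit of the Ndc80 complex that grips microtubules, read 9.04, 8.96, 9.06, 8.63 and 8.86 in MSC arrays 1 to 5, 7.23, 7.20, 7.35, 6.40 and 7.17 in MA, and 3.74, 4.84, 4.08, 3.90 and 3.96 in DED. It was lowest in every DED array, 4 of them under the negative control median and array 2 just above it. The differences were -1.84 (SE 0.19) and -2.97 (SE 0.19, adjusted p = 4.2e-10).

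The complex has 4 subunits, and the other 3 are given next. NDC80 fell (-2.42 and -2.04), and SPC25 at -1.82 and -2.09. SPC24 read 7.41, 7.34, 6.89, 7.10 and 7.32 in MSC arrays 1 to 5, 7.00, 6.64, 6.83, 7.38 and 6.52 in MA, and 6.56, 6.62, 6.62, 6.54 and 6.59 in DED. Its neighbouring groups overlapped, and only the span from MSC to DED passed the test. The SPC24 probe set stayed below 8.31, the negative controls' upper level, in all groups. The differences were -0.34 (SE 0.14, adjusted p = 0.078) from MSC to MA, -0.29 (SE 0.14, adjusted p = 0.16) from MA to DED and -0.63 (SE 0.14, adjusted p = 0.0016) from MSC to DED. SPC24 passed the first step without MSC array 3 (-0.42, adjusted p = 0.0329), without MA array 4 (-0.46, adjusted p = 0.0078) and with array weights (-0.38, adjusted p = 0.0303).

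CENPA, the histone variant that marks centromeres, was near background throughout. It read 6.23, 5.50, 5.01, 5.14 and 5.70 in MSC arrays 1 to 5, 4.97, 5.0, 4.78, 4.96 and 5.06 in MA, and 4.62, 4.92, 4.68, 4.94 and 4.70 in DED. MSC overlapped MA, and MA overlapped DED. CENPA fell by 0.56 from MSC to MA (SE 0.17, adjusted p = 0.015) and stood at -0.18 (SE 0.17, adjusted p = 0.50) from MA to DED.

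The remaining kinetochore genes fell at both steps. CENPF, a large protein of the outer kinetochore, fell (-3.22 and -2.42), the first being the steepest first step of all 49. CENPE, a kinesin that moves chromosomes to the spindle equator, fell (-2.22 and -0.91). SKA1 and SKA3, of the complex that keeps kinetochores on shrinking microtubules, fell (-2.31 and -1.21, and -1.66 and -1.78). ZWINT, a kinetochore scaffold, differed by -1.08 and then by -0.46 (SE 0.14, adjusted p = 0.018), a call that was lost without MA array 4 (0.058), DED array 4 (0.0502) or DED array 5 (0.0563).

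All 6 checkpoint and anaphase genes fell at both steps with no overlap, with medians of -1.84 and -1.44. UBE2C, the ubiquitin-conjugating enzyme of the anaphase-promoting complex, read 11.71, 11.40, 11.78, 11.51 and 11.33 in MSC arrays 1 to 5, 9.57, 9.39, 9.56, 9.43 and 9.92 in MA, and 7.79, 6.88, 6.99, 7.11 and 7.22 in DED. It fell (-1.97 and -2.38, SE 0.16 each). CDC20, which activates the same complex, read 9.62, 10.37, 10.04, 9.83 and 10.22 in MSC, 8.47, 8.33, 8.66, 8.34 and 8.43 in MA, and 7.96, 8.10, 8.07, 8.17 and 7.93 in DED.

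CDC20 thus differed by -1.57 (SE 0.13) at the first step and by -0.40 (SE 0.13, adjusted p = 0.026) at the second, the smallest called second step. That call was lost without MA array 3 (adjusted p = 0.0754), without DED array 5 (0.0627) and without DED arrays 1 and 3 together (0.0839). The checkpoint kinase BUB1 fell (-2.09 and -1.07), its relative BUB1B (BubR1) at -1.67 and -1.0, and the checkpoint effector MAD2L1 at -1.89 and -1.81. PTTG1, securin, which restrains separase until anaphase, fell (-1.79 and -2.18).

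The chromosomal passenger complex, which corrects faulty attachments and later directs cleavage, had the smallest median of the role groups from MA to DED. Of its 4 genes 3 fell from MSC to MA and 4 from MA to DED, with medians of -1.54 and -0.71. CDCA8, the borealin subunit, read 9.15, 8.64, 8.71, 8.36 and 8.93 in MSC arrays 1 to 5, 7.13, 6.91, 7.03, 6.90 and 7.02 in MA, and 5.81, 5.71, 5.10, 5.58 and 5.58 in DED, with separate groups. It fell (-1.76 and -1.44, SE 0.15 each). AURKB, the kinase of the complex, fell (-1.86 and -0.70, SE 0.18 each), and INCENP, its scaffold, at -1.33 and -0.72 (SE 0.15 each). The second fall of AURKB (adjusted p = 0.0064) was not called without DED arrays 1 and 3 together (-0.53, adjusted p = 0.0675).

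BIRC5, survivin, was the exception at the first step. It read 6.85, 6.74, 6.57, 6.88 and 6.91 in MSC arrays 1 to 5, 6.56, 6.83, 6.99, 6.95 and 6.71 in MA, and 6.13, 6.60, 6.14, 6.10 and 6.32 in DED. MSC and MA overlapped over most of their range, and DED array 2 lay within it while the other DED arrays lay below. The difference of MA from MSC was 0.02 (SE 0.12, adjusted p = 0.94), whose sign turned in 4 alternatives, and that of DED from MA was -0.55 (SE 0.12, adjusted p = 0.0018). The BIRC5 probe set stayed below 8.31, the negative controls' upper level, in all groups.

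All 5 spindle assembly and microtubule-binding genes fell at both steps with no overlap, with medians of -2.38 and -2.13. DLGAP5 (HURP), which stabilises microtubules near chromosomes, read 11.03, 10.90, 10.76, 10.87 and 11.18 in MSC arrays 1 to 5, 8.61, 8.49, 8.83, 8.78 and 8.14 in MA, and 5.25, 4.82, 3.70, 4.99 and 4.48 in DED. Its second fall was the steepest of the 49, and its DED mean was under the negative control median. The differences were -2.38 and -3.92 (SE 0.21 each). NUSAP1, which bundles spindle microtubules, read 11.11, 10.78, 11.11, 10.95 and 11.28 in MSC, 9.42, 9.47, 9.04, 9.31 and 9.35 in MA, and 8.45, 7.84, 8.22, 8.20 and 8.23 in DED.

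NUSAP1 fell (-1.73 and -1.13, SE 0.13 each) and had the highest DED mean of all members, 8.19. TPX2, the activator of Aurora A on the spindle, fell (-2.42 and -3.11), HMMR, a spindle-pole protein, at -1.24 and -1.47, and ASPM, which focuses spindle poles, at -2.86 and -2.13. ASPM varied within DED, at 4.64, 4.69 and 4.85 in arrays 1, 3 and 4 and at 5.82 and 6.18 in arrays 2 and 5.

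All 9 mitotic kinesins fell at both steps with no overlap, with medians of -2.09 and -1.47. KIF20A, which carries regulators to the spindle midzone, read 10.82, 10.99, 10.56, 10.76 and 10.80 in MSC arrays 1 to 5, 8.22, 7.77, 8.15, 7.92 and 8.03 in MA, and 5.0, 4.68, 3.68, 3.78 and 3.77 in DED. In 4 of 5 DED arrays it lay under the negative control median. It fell (-2.77 and -3.84, SE 0.21 each) and showed the largest span of all 49 from MSC to DED, -6.60. KIF2C, which takes microtubules apart at centromeres, read 7.47, 8.03, 7.75, 6.99 and 7.66 in MSC, 5.83, 6.22, 5.32, 5.40 and 5.82 in MA, and 4.31, 4.88, 4.97, 4.78 and 5.23 in DED.

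KIF2C fell (-1.86 and -0.88, SE 0.20 each, adjusted p = 0.0022 for the second), and its highest DED array was just below its lowest MA array. KIF11 (Eg5), which pushes spindle poles apart, fell (-2.09 and -1.96), KIF15, its partner in that task, at -1.61 and -1.39, and KIF23, of the centralspindlin complex, at -2.83 and -1.65. KIF14 fell (-2.45 and -1.47), KIF4A, a chromosome-bound kinesin, at -1.57 and -1.33, and the microtubule-length regulators KIF18A and KIF18B at -2.67 and -1.79 and at -1.46 and -0.93.

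The 3 midzone and cytokinesis genes fell at both steps but split at the second. ANLN, anillin, the scaffold of the cleavage ring, read 13.33, 13.03, 13.24, 13.29 and 13.40 in MSC arrays 1 to 5, 11.43, 11.51, 11.43, 11.35 and 11.79 in MA, and 8.28, 7.99, 7.81, 7.75 and 8.04 in DED. The groups were tight and far apart. ANLN fell 3.38-fold from MSC to MA, and the log2 differences were -1.76 and -3.53 (SE 0.12 each), with the smallest adjusted p of any member at the second step, 8.3e-14.

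ECT2, the exchange factor that activates RhoA at the cleavage site, had its larger fall at the first step. It read 10.07, 9.65, 9.63, 9.91 and 10.09 in MSC arrays 1 to 5, 7.45, 6.80, 7.89, 7.31 and 7.30 in MA, and 6.75, 6.27, 6.65, 5.72 and 7.14 in DED. DED array 5 lay above MA array 2, so the second step overlapped. ECT2 fell (-2.52 and -0.84, SE 0.22 each, adjusted p = 0.0063). PRC1, which bundles antiparallel microtubules of the midzone, fell (-2.42 and -2.97, SE 0.17 each).

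The sizes of both steps were then set against each other in the same fit, as the second difference minus the first. This contrast was added after the values had been seen. By it 4 members had a larger second than first fall (12.9% of all genes had a negative contrast past the test) and 12 a larger first fall (14.4% had a positive one), with a median of 0.23 over the members and 0.042 over all genes. The count of 4 among 49 is not above the share of all genes. Those shares also take in genes that rose at a step, so they are not shares of genes that fell at both. The second fall was larger for ANLN, at -1.77 (SE 0.21, adjusted p = 1.5e-06), DLGAP5, at -1.54 (SE 0.37, adjusted p = 0.0032), NUF2 (adjusted p = 0.015) and KIF20A (adjusted p = 0.031). The calls of ANLN and DLGAP5 held in every alternative, that of NUF2 was lost without MA array 3, and that of KIF20A without MSC array 3, any of MA arrays 1, 3 and 5, or DED array 4 or 5.

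The first fall was larger for ECT2 by 1.68 (SE 0.38, adjusted p = 0.0020), CENPE by 1.31 (SE 0.22, adjusted p = 1.0e-04), KIF23 by 1.18 (SE 0.28, adjusted p = 0.0029), CDC20 by 1.17 (SE 0.22, adjusted p = 0.00044) and AURKB by 1.15 (SE 0.32, adjusted p = 0.0091). It was also larger for SKA1 by 1.10, BUB1 by 1.02 and KIF14 by 0.99, and these 8 calls held in every alternative. Those of KIF2C, KIF18A, AURKA and BUB1B were lost in some. A second fall that ends near background can be understated, and KIF14, at 4.20 in DED, lay under the negative control median. The part of background in these differences was not tested.

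**Figure D4:**
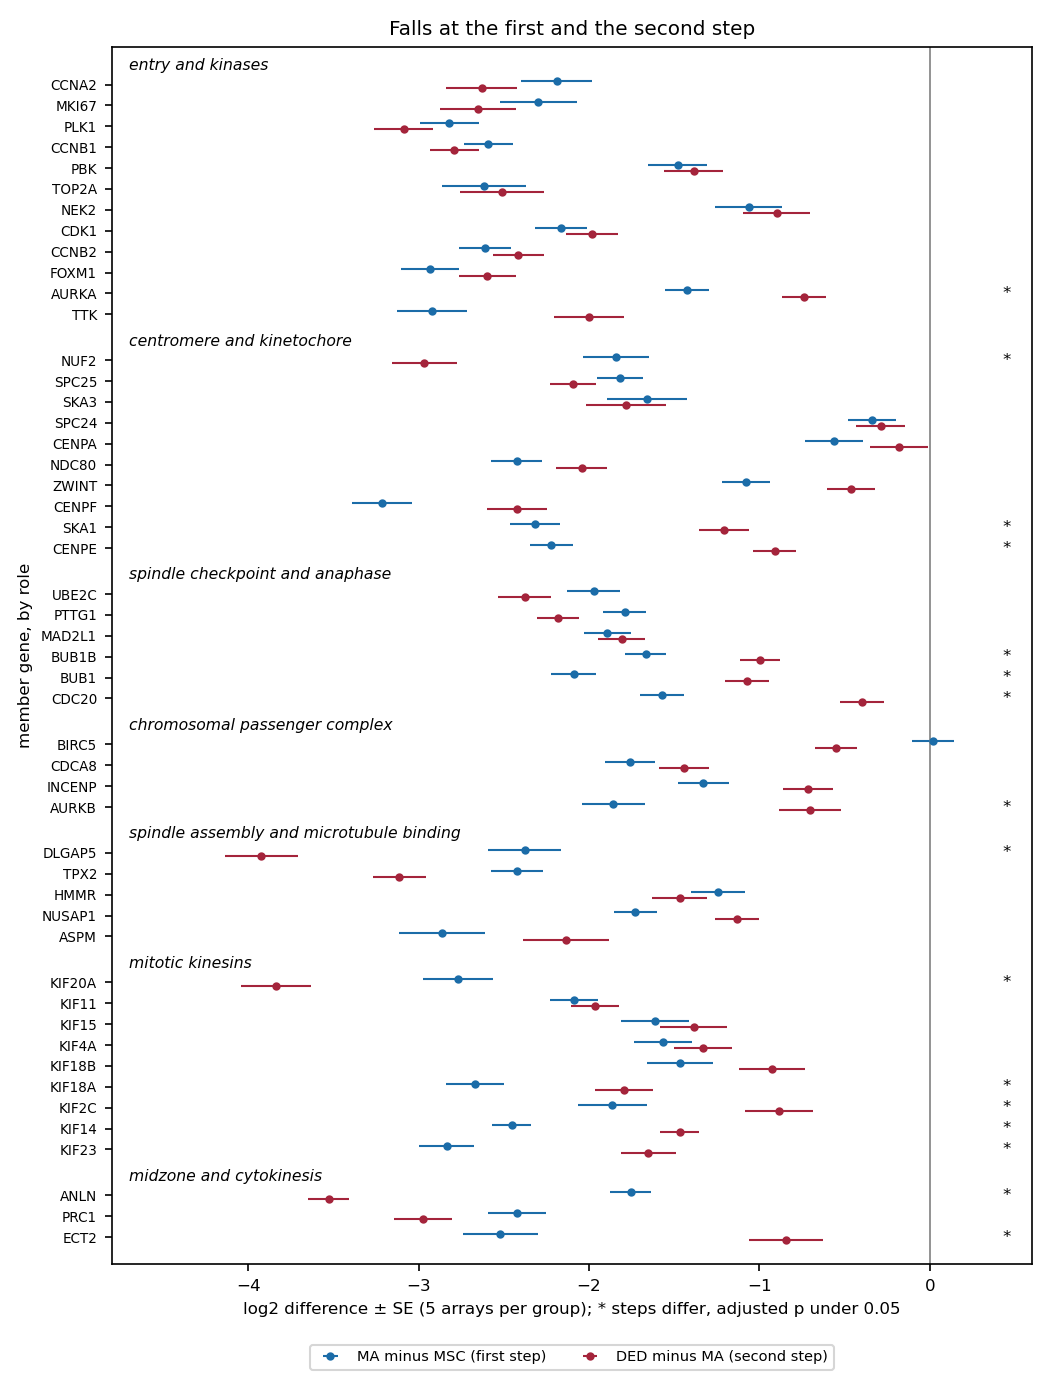
Log2 difference and SE (x axis) of each mitotic gene (rows, grouped by role) for MA minus MSC in blue and DED minus MA in red, 5 arrays per group, with an asterisk where the steps differed at an adjusted p under 0.05. Among asterisked genes red lies left of blue for ANLN, DLGAP5, NUF2 and KIF20A, and 12 show the opposite, ECT2 and CENPE most.

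Other mitotic genes, listed by complex, were counted in the same way and are read against the same shares of all genes, 17.6% lower and 15.4% higher from MSC to MA and 13.0% lower and 12.9% higher from MA to DED. Of 15 measured inner kinetochore and centromere loading genes 13 fell from MSC to MA and 11 from MA to DED, and 0 rose at either step. CENPO fell most at the first step, at -2.47 (SE 0.17), and HJURP, the chaperone that deposits CENPA, fell (-2.31 and -2.52, SE 0.16 each). CENPW fell (-1.12 and -2.33), while CENPC, the scaffold of the inner kinetochore, had means of 9.86, 10.01 and 9.93 for MSC, MA and DED and passed neither test. Of 13 outer kinetochore and checkpoint genes 11 fell at the first step and 6 at the second, with KNL1 at -1.92 and -1.34 and SPDL1 at -1.67 and -1.16. TRIP13 and DSN1 led the second step, TRIP13 at -1.63 and DSN1 at -1.49, and MIS12 rose by 0.67 (SE 0.11, adjusted p = 0.00011) after a fall of 0.47.

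Of 16 cohesin, separase, shugoshin and condensin genes 13 fell from MSC to MA and 9 from MA to DED. The condensin subunit SMC4 fell (-2.67 and -1.13), SGO1, which protects centromeric cohesin, at -2.46 and -1.36, NCAPG at -1.88 and -2.67 and CDCA5 (sororin) at -2.03 and -1.78. Of the cohesin subunits, SMC1A fell by 0.95, SMC3 fell by 0.82 and STAG1 fell by 0.44 from MSC to MA, and STAG2 stood at 0.14 and did not pass. From MA to DED these 4 stood at -0.11, 0.09, 0.04 and -0.06, and none of the 4 passed. They were picked from the list after their values were seen.

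Of 16 genes of the anaphase-promoting complex and its regulators 8 fell and 2 rose from MSC to MA (17.6% and 15.4% of all genes), and 2 fell and 0 rose from MA to DED (13.0% and 12.9% of all genes), with medians of -0.30 and 0.016. The second count is near the share of all genes. The falls were led by its inhibitor FBXO5 (EMI1), at -1.85 and -0.87, and the chain-extending enzyme UBE2S, at -1.67 and -0.074, and the second step by FBXO5 and ANAPC5 (-0.37). ANAPC13 rose by 0.57 and CDC26 by 0.37 at the first step. The members CDC20 and UBE2C, which work with this complex, fell at both steps, as given above.

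Of 14 genes that control mitotic entry 9 fell and 2 rose from MSC to MA (17.6% and 15.4% of all genes), and 6 fell and 0 rose from MA to DED (13.0% and 12.9% of all genes). The rises are near the share of all genes. The phosphatase CDKN3 fell (-2.34 and -3.14), CKS2, a CDK subunit, at -1.65 and -2.26, and GTSE1 at -1.93 and -0.85. WEE1, the kinase that holds CDK1 inactive, rose from 10.67 in MSC to 12.79 in MA, by 2.11 (SE 0.16, adjusted p = 2.5e-09), and was 13.04 in DED, and ENSA rose by 0.40 at the first step. Of 22 further spindle, centrosome and cytokinesis genes 19 fell and 1 rose at the first step and 15 fell at the second. DEPDC1 fell (-2.81 and -2.41), FAM83D at -2.52 and -2.08 and RACGAP1, the partner of KIF23, at -1.68 and -2.14, while NUMA1 rose by 0.63 and then fell by 0.51.

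Of 14 genes listed under DREAM, MuvB and B-MYB 6 fell and 2 rose from MSC to MA (17.6% and 15.4% of all genes). From MA to DED 5 fell and 2 rose (13.0% and 12.9% of all genes). The medians of these steps were -0.24 and 0.15. The rises are near the share of all genes. MYBL2 (B-MYB), which activates late cell cycle genes, fell (-1.60 and -0.66), and LIN9, a MuvB subunit, at -1.81 and -0.54. RBL2 (p130), the pocket protein of DREAM in resting cells, rose by 0.76 (SE 0.13) at the first step, TFDP2 rose by 0.85 and then fell by 0.50, and TFDP1 fell by 0.80 at the second. E2F5, a repressor of the DREAM family, was 8.18 in MSC, fell to 6.71 in MA and rose to 8.95 in DED, by 2.24 (SE 0.30, adjusted p = 9.1e-06), and RB1 fell by 0.60 and then rose by 0.49.

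**Figure D5:**
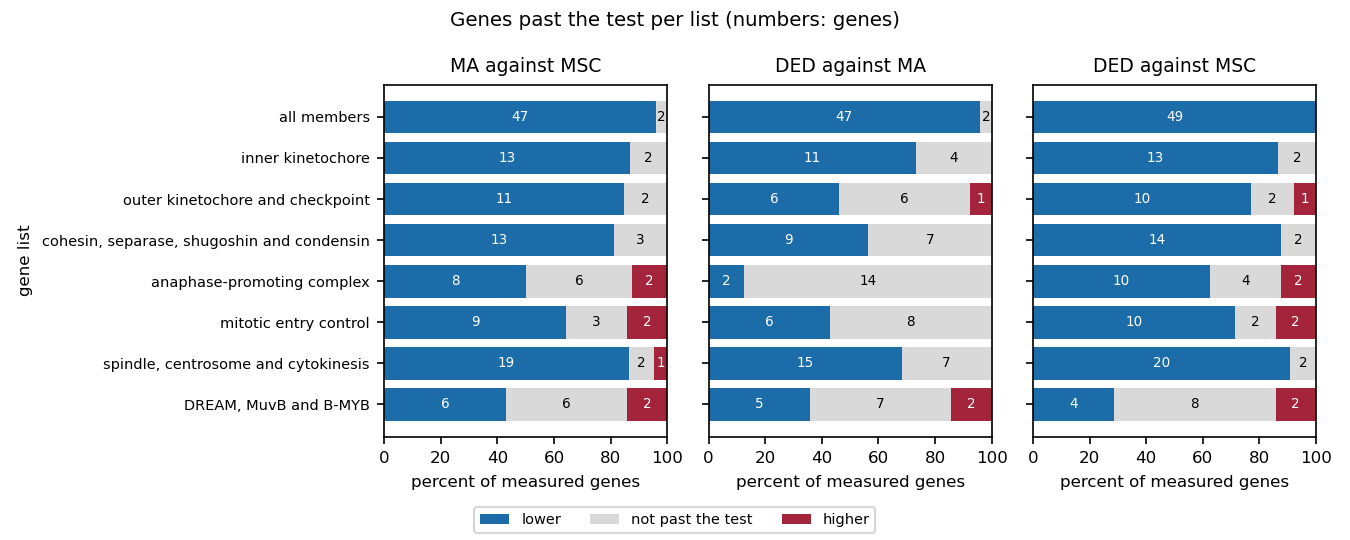
Share of measured genes (x axis, percent) called lower, not past the test or called higher in each of 3 comparisons, for the 49 members and 7 lists of other mitotic genes, with gene counts in the bars. Lower calls fill 47, 47 and 49 of 49 among the members and 2 of 16 in the anaphase-promoting complex for DED against MA.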

How the data were processed

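Total RNA of 15 samples was measured on single-colour arrays. The authors deposited log2 intensities, 1 value per probe set and array, and the submitters' processing notes name RMA and Transcriptome Analysis Console. No version or genome build was given. RMA normalizes between arrays, so a shift shared by all genes cannot be read.

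Of 24351 probe sets 17709 carried 1 gene symbol, giving 17687 genes. Groups came from the titles. Differences were tested with limma 3.58.1 in R 4.3.3 (1 mean per group, all 15 arrays, two-sided, Benjamini-Hochberg over all genes, threshold 0.05). Group values are a mean with its SD over 5 arrays, SEs are moderated, and the number of arrays limits the precision.

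The members and lists were chosen with earlier results of these data known, so no set test was run. Members given in every array are, per role group, those with the largest and smallest difference of DED from MA, plus the members not called in some comparison. Up to 2 falls and 2 rises per other list and step are named, with CENPC and 4 cohesin genes chosen after their values were seen. CENPP, PMF1, RAD21, CIT, CKAP5, ARHGAP11A and KRT81 were not matched.

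The test was tried first on simulated data with the same spread in all groups, unlike the spreads seen here. It recovered 54% to 66% of 1.5-fold changes, 92% to 94% of 2-fold changes and 100% of 4-fold and 8-fold changes. The alternatives were quantile normalization, a common median, array weights, dim genes left out (under the 25th percentile), a robust fit with intensity trend, each probe set on its own, only the groups compared, the replicate block, each array left out, and DED arrays 1 and 3 left out. Promoter motifs were searched with Python 3.11.15, and figures were drawn with matplotlib 3.10.9.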

Additional observations from a re-analysis of the deposited data

Results flagged for a closer look

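Dixon's test at 95% was applied to the 5 arrays of each group for each of the 49 genes and for their mean, 150 groups in all, and 6 held an array far from the other 4, where chance alone gives about 1 in 20. BUB1B was at 8.62 in MSC array 2 and at 8.97 to 9.02 in the other MSC arrays. TOP2A was at 5.90 in DED array 3 and at 7.30 to 7.77 in the others. NEK2 was at 6.37 in MA array 2 against 7.0 to 7.15, and NUF2 at 6.40 in MA array 4 against 7.17 to 7.35. PBK was at 5.05 in DED array 1 against 4.22 to 4.40, and ZWINT at 8.0 in MA array 4 against 7.42 to 7.53. The 6 values fell in 5 arrays, MA array 4 holding NUF2 and ZWINT, and no array stood apart in the mean over the members by this test.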

How the results depend on the processing

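Across 24 alternatives the number of members called lower stayed within 1.5 times its reported value in all 3 comparisons. Members called higher numbered 0 in each. As nearly all 49 were called, that bound is wide and says little. With each array left out in turn the number called lower ran from 47 to 48 for MA against MSC. It ran from 45 to 47 for DED against MA and was 49 throughout for DED against MSC. The medians were -2.06 to -1.91, -1.80 to -1.66 and -3.93 to -3.85. All 47 calls of MA against MSC and all 49 of DED against MSC held wherever the gene was tested, CENPA being left out with the dim genes, and 44 of 47 held for DED against MA, AURKB, CDC20 and ZWINT being the exceptions. The difference of BIRC5 for MA against MSC turned to -0.0021 with array weights and to -0.037, -0.028 and -0.018 without MSC array 3, MA array 3 or MA array 4 (range without single arrays -0.037 to 0.080). Genes with a larger second fall numbered 2 without MA array 3 and 7 without DED array 2, the lowest and highest counts, and those with a larger first fall 10 to 13, with 10 of the 16 calls held in every alternative. The replicate numbers did not pair the arrays: the correlation of deviations from group means ran from -0.11 to 0.087 over 15 same-numbered pairs. With the replicate block 47, 47 and 49 members were lower, with medians of -1.97, -1.78 and -3.91, and 4 and 10 had a larger second or first fall, KIF18A and AURKA losing their calls. In DED 10 member means lay under the negative control median, and the part of background in the second step was not tested.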
